A study of Rattus norvegicus with 6 samples.

Results

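Glucose breakdown and the response to low oxygen were described in liver sinusoidal endothelial cells (LSEC), the perforated endothelium of the liver's microvessels, under a raised perfusion pressure. The set held 31 genes chosen by symbol, of 32623 gene rows in the files. Of these, 14 encode enzymes of glycolysis and lactate formation. The other 17 encode the glucose and lactate carriers, regulators of glycolytic flux, subunits and sensors of the hypoxia-inducible factor (HIF), and genes that HIF is known to induce. Both pressures used primary LSEC of Han Wistar rats obtained with the 4 in 1 isolation. The cells shared the Exoliver device, a perfused bioreactor, with hepatocytes, hepatic macrophages and stellate cells, also primary, and received shear of 1.15 dyn/cm2 over 48 h. A pathological pressure of 12 mmHg was set against a physiological pressure of 1 mmHg, with 3 libraries each of polyA RNA, read single-end. Whether libraries of a group stem from different rats or cultures is not stated, so each p-value speaks of the spread among these libraries alone, which may be technical.

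In glycolysis, glucose enters the cell through carriers such as that encoded by Slc2a1 and is split into pyruvate, which lactate dehydrogenase can turn into lactate for export. HIF consists of an oxygen-labile alpha subunit, encoded by Hif1a or Epas1, and a stable partner. When oxygen is present, prolyl hydroxylases mark the alpha subunit for destruction, and when oxygen is scarce HIF binds the letters ACGTG or GCGTG in DNA and raises many glycolytic genes. Endothelial cells are known for relying heavily on glycolysis, whereas hepatocytes also make glucose and use liver isozymes of several steps.

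The promoters of 4 members are shown because their groups did not overlap (Egln1) or because their unadjusted p was among the 2 smallest in a direction. Each is 300 bases of RefSeq sequence in the GRCr8 build, from 250 bases before to 50 bases after the annotated start, written 5′ to 3′ on the gene's strand, with every ACGTG or GCGTG on either strand in capitals. The Egln1 promoter lies on chromosome 19, on the minus strand of chr19:69804632-69804931, and the Tpi1 promoter on the minus strand of chr4:159305039-159305338. The Ddit4 promoter lies on the minus strand of chr20:28436988-28437287, and the Vegfa promoter on the plus strand of chr9:22452604-22452903.
Egln1: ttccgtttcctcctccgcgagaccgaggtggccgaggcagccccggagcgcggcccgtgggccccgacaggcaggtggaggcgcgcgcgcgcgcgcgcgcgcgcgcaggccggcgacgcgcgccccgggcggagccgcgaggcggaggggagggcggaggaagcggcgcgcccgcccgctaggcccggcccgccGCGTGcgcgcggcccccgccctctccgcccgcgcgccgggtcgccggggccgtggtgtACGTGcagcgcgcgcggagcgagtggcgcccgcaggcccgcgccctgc
Tpi1: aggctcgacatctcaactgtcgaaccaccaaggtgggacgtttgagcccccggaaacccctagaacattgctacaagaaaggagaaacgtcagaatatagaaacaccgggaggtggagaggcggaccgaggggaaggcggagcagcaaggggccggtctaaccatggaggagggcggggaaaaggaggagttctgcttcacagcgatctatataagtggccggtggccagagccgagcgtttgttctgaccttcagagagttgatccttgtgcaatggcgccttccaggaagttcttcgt
Ddit4: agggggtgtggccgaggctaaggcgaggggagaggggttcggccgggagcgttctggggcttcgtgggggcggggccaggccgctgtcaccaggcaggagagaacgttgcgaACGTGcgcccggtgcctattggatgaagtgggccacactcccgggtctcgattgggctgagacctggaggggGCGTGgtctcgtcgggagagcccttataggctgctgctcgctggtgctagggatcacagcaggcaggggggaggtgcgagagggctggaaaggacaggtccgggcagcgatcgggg
Vegfa: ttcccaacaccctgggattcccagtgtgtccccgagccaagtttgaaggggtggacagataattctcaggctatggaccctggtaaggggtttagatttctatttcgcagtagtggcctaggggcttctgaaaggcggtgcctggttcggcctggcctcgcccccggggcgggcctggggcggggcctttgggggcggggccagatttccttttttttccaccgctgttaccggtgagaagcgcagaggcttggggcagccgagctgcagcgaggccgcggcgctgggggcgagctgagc
The Egln1 window held the core 2 times, at positions -56 and 2 relative to the start. Ddit4 also held it 2 times, at positions -138 and -66, and the windows of Tpi1 and Vegfa held none. Of the 28 members with a promoter in the RefSeq table, 17 held the core (60.7%), against 42.9% of all 27457 promoters of the same length. Among enzymes 8 of 13 promoters held it, and among the other members 9 of 15. The members' windows had a median GC content of 63.3%, against 52.3% for all promoters, and the part of base composition in the share was not tested. The core occurred 6 times in the Ldha window, 5 times in that of Ankrd37 and 4 times each in those of Slc2a1, Slc16a1, Pdk1 and Bnip3. The E-box CACGTG contains the core, so the 2 motifs overlap where it occurs, and it occurred 1 time each in the windows of Ldha, Slc16a1, Pfkfb3, Hif1a, Bnip3 and Ankrd37. A match is a description of letters and not of binding. Sites outside the window were not searched, so a window without the core does not mean a gene without one.

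Library totals ran from 8925149 to 24025406 counts, and 10234 to 17189 genes had a count. At 12 mmHg, the 18 hepatocyte markers summed to 435, 713 and 65025 CPM (counts scaled to library size) in pathological libraries 1, 2 and 3. At 1 mmHg they summed to 292, 48894 and 32664 CPM in physiological libraries 1, 2 and 3. Libraries above 10000 summed CPM (pathological 3, physiological 2 and physiological 3) are called hepatocyte-rich here, and the other 3 hepatocyte-poor. All 15 endothelial markers matched in the files had a count in every library. They summed to 1645, 935 and 5893 CPM in pathological libraries 1, 2 and 3, and to 3178, 6217 and 3948 CPM in physiological libraries 1, 2 and 3. The 3 hepatocyte-rich libraries thus held the 3 highest endothelial sums as well, so the hepatocyte-poor libraries were not richer in endothelial transcripts by this sum. Not every marker followed that order, with Cdh5, Tek, Tie1 and Mrc1 highest in physiological library 1. Lyve1 alone had 1861, 1711 and 1272 CPM in pathological library 3 and physiological libraries 2 and 3. In pathological libraries 1 and 2 and physiological library 1 it had 48.6, 67.7 and 314 CPM. The log2 fold changes of the endothelial markers, 12 mmHg over 1 mmHg, were negative for 15 of 15, with a median of -0.74, and none passed the test. Markers of other cells leaned the same way without passing it, with 17 of 18 hepatocyte (median -0.53), 7 of 9 tested stellate (-0.90) and 8 of 12 macrophage markers (-0.51) negative. Macrophage markers summed to 44.3 to 1299 CPM at 12 mmHg and 773 to 1250 CPM at 1 mmHg, with 1 of 12 (Adgre1) at 0 in pathological library 2. Stellate markers summed to 417 to 1329 CPM at 12 mmHg and 690 to 1188 CPM at 1 mmHg, with 3 of 10 (Pdgfrb, Acta2 and Rgs5) at 0 in pathological library 3. Reln made up most of the stellate sum in pathological libraries 1 and 2 and physiological library 1, with 501, 388 and 655 CPM. Lrat had 2.65, 7.36 and 1.42 CPM there, against 853, 610 and 519 CPM in pathological library 3 and physiological libraries 2 and 3. Pdgfrb, Acta2, Col1a1, Dcn and Rgs5 followed neither order. Of the 9 tested stellate markers, 2 (Pdgfrb and Acta2) had groups that did not overlap, lower at 12 mmHg, against 3.05% of all genes. Pdgfrb had 0.589, 0.803 and 0 CPM at 12 mmHg, against 5.54, 18.3 and 48.1 CPM at 1 mmHg. By edgeR 1 of the 9 had an unadjusted p under 0.05, against 0.259% of all genes. Of the hepatocyte markers, Cyp3a2 was at 0 in the first library of each group. Transcripts of the mitochondrial genome summed to 3347 to 44763 CPM at 12 mmHg and 12416 to 167288 CPM at 1 mmHg, with 12 of 12 negative (median -1.49). The 3 hepatocyte-rich libraries also held the 3 highest sums of stellate markers and of mitochondrial transcripts. In such bulk RNA, fewer cells of a type and less RNA per cell cannot be told apart.

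No member passed the test between pressures. Of the 31 members, 30 had enough counts to be tested, and edgeR's quasi-likelihood test with Benjamini-Hochberg adjustment called 0 of them, against 0% of 12742 genes, with an adjusted p of 1.00 for each. At an unadjusted p under 0.05 the count was 0 of 30, against 0.259% of all genes. DESeq2 called 0 members as well, against 0.00785% of all genes, and limma-voom called 0. With limma-voom sample weights 11 members had an unadjusted p under 0.05, against 19.8% of all genes, and 0 were called. The log2 fold change was positive for 18 members and negative for 12, with a median of 0.17, and over all genes it was positive for 6693 and negative for 6049, with a median of 0.05. Enzymes (median 0.17, from -0.57 to 0.85) lay closer together than the other members (median 0.25, from -1.58 to 1.42), and that difference in spread was not tested. The groups did not overlap for 1 of 30 members, Egln1, which was lower at 12 mmHg, against 3.05% of all genes not overlapping in that direction. No member was higher in every 12 mmHg library, against 1.56% of all genes.

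**Figure D1:**
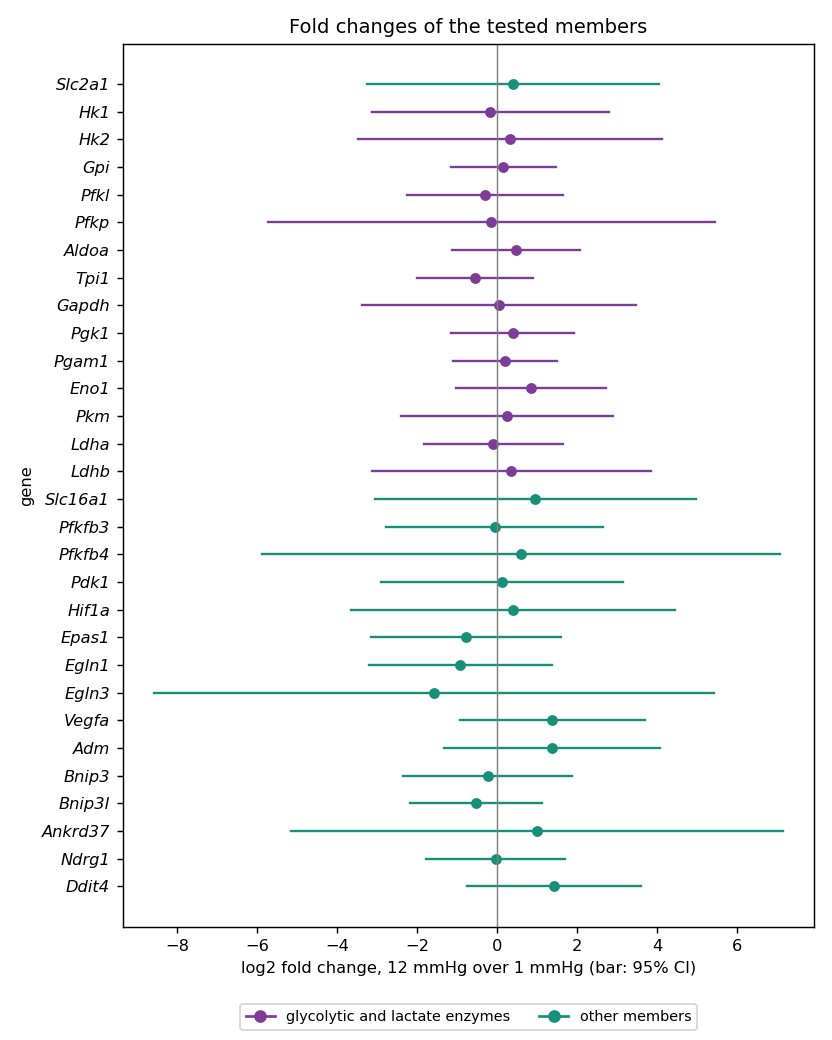
Log2 fold change of the 30 tested members, 12 mmHg over 1 mmHg, on the x axis, with its 95% confidence interval as a bar, enzymes in purple and other members in green. Every interval includes 0, and the points run from -1.58 (Egln3) to 1.42 (Ddit4).

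Among members with a count in all 6 libraries, Slc2a1 and Hk2 had the widest range between their highest and lowest library. Slc2a1, which encodes the facilitative glucose carrier GLUT1, had 125, 238 and 0.0948 CPM at 12 mmHg, against 134, 96.2 and 45.0 CPM at 1 mmHg. The third 12 mmHg value stood for 1 count (exact 95% Poisson interval 0.00240 to 0.528 CPM, counting error only), while the other 5 libraries lay far above it and the groups overlapped. Its log2 fold change was 0.39 (95% confidence interval -3.26 to 4.05, edgeR unadjusted p = 0.81). Among the hepatocyte-rich libraries alone, pathological library 3 against physiological libraries 2 and 3, Slc2a1 had a log2 fold change of -9.38. That fit sets 1 library against 2, assumes the lone library to vary like the others, and compares those libraries rather than the pressures. It called 1.93% of 12652 genes, Slc2a1 being the only member. Of 28 members tested there, 3 had an unadjusted p under 0.05, against 9.91% of all genes, and 21 had groups that did not overlap, against 65%. Among the hepatocyte-poor libraries the log2 fold change of Slc2a1 was 0.43, with 0 genes called. There 1 of 31 tested members, Pfkl (-1.60), had an unadjusted p under 0.05, against 1.27% of all genes, and 26 had groups that did not overlap, against 68.5%.

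Hexokinases phosphorylate glucose and trap it in the cell. Hk1 had 91.9, 76.7 and 2.08 CPM at 12 mmHg, against 122, 56.7 and 13.7 CPM at 1 mmHg. Hk2, the insulin- and HIF-responsive form, had 67.0, 76.5 and 0.0948 CPM at 12 mmHg (1 count in the third), against 83.5, 21.2 and 10.3 CPM at 1 mmHg. Both were lowest in the hepatocyte-rich library at 12 mmHg and highest in the hepatocyte-poor library at 1 mmHg, with overlapping groups. Their log2 fold changes were -0.17 (95% confidence interval -3.13 to 2.78) for Hk1 and 0.32 (-3.48 to 4.12) for Hk2.

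Gpi, the isomerase that follows, had 166, 213 and 255 CPM at 12 mmHg, against 209, 240 and 121 CPM at 1 mmHg, and its highest level was 2.11 times its lowest. Of the phosphofructokinases, which catalyse the committed step, the liver-type Pfkl averaged 73.4 ± 69.4 CPM at 12 mmHg and 91.2 ± 13.0 CPM at 1 mmHg (SD, n = 3 each). The platelet-type Pfkp had 21.8, 9.00 and 0 CPM at 12 mmHg, against 20.8, 13.2 and 0 CPM at 1 mmHg. The zeros of Pfkp fell in 2 of the 3 hepatocyte-rich libraries, where 3 counts would be 0.284 CPM at 12 mmHg and 0.428 CPM at 1 mmHg.

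Among the later enzymes of the pathway, Eno1 and Aldoa had the smallest unadjusted p with a positive fold change, and Tpi1 with a negative one. Aldoa, the muscle-type aldolase that splits fructose bisphosphate, had 1931, 3858 and 1030.0 CPM at 12 mmHg, against 1554, 1497 and 1853 CPM at 1 mmHg. It averaged 2273 ± 1445 CPM at 12 mmHg and 1634 ± 191 CPM at 1 mmHg (SD, n = 3 each), and both the highest and the lowest library were at 12 mmHg. The log2 fold change of Aldoa was 0.48 (95% confidence interval -1.12 to 2.08, unadjusted p = 0.512).

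Tpi1, the isomerase of triose phosphates, had 166, 182 and 424 CPM at 12 mmHg, against 258, 401 and 485 CPM at 1 mmHg. In both groups the hepatocyte-rich libraries were the higher ones, and the groups overlapped through pathological library 3. Tpi1 had a log2 fold change of -0.57 (-2.02 to 0.89, unadjusted p = 0.394). Gapdh, which oxidises glyceraldehyde phosphate, had 9.23, 27.1 and 433 CPM at 12 mmHg, against 9.94, 186 and 262 CPM at 1 mmHg. The 3 hepatocyte-rich libraries held its 3 highest values in either group, and its log2 fold change was 0.04 (-3.39 to 3.46). RefSeq lists 91 symbols that name Gapdh pseudogenes or like genes, and the Gapdh count was not whole in any of the 6 libraries, so reads may have been divided with copies and its level is uncertain.

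Pgk1, a kinase that yields ATP, had 806, 1589 and 397 CPM at 12 mmHg, against 728, 605 and 800 CPM at 1 mmHg, so that the 12 mmHg libraries lay on both sides of the other 3. Pgam1, a mutase, averaged 332 ± 54.4 CPM at 12 mmHg and 290 ± 106 CPM at 1 mmHg (SD, n = 3 each) and varied least of all members, by 1.91 times between its highest and lowest library. Eno1, the enolase of most tissues, had 2469, 3725 and 717 CPM at 12 mmHg, against 2186, 757 and 892 CPM at 1 mmHg. Its 2 hepatocyte-poor libraries at 12 mmHg were the highest of all, followed by the hepatocyte-poor library at 1 mmHg, and its log2 fold change was 0.85 (-1.03 to 2.73, unadjusted p = 0.328). Copies are listed in RefSeq for these genes too, with 34 for Eno1, 13 for Pgam1, 9 each for Aldoa and Pgk1 and 5 for Tpi1, so that their counts are uncertain.

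Pkm, the pyruvate kinase of most non-liver tissues, had 805, 657 and 56.2 CPM at 12 mmHg, against 1016, 178 and 89.9 CPM at 1 mmHg. The 3 lowest values were those of the hepatocyte-rich libraries, the groups overlapped, and the log2 fold change was 0.24 (-2.41 to 2.89). Ldha, the lactate dehydrogenase chain that HIF induces, had 306, 176 and 1042 CPM at 12 mmHg, against 456, 558 and 617 CPM at 1 mmHg. Here the hepatocyte-rich libraries were the 3 highest, and the log2 fold change was -0.10 (-1.83 to 1.64). Ldhb, the heart-type chain, averaged 35.8 ± 43.8 CPM at 12 mmHg and 28.0 ± 23.3 CPM at 1 mmHg (SD, n = 3 each), with its 3 highest values in the same libraries. Pkm and Ldha are uncertain as well, with 20 and 31 copies listed in RefSeq.

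**Figure D2:**
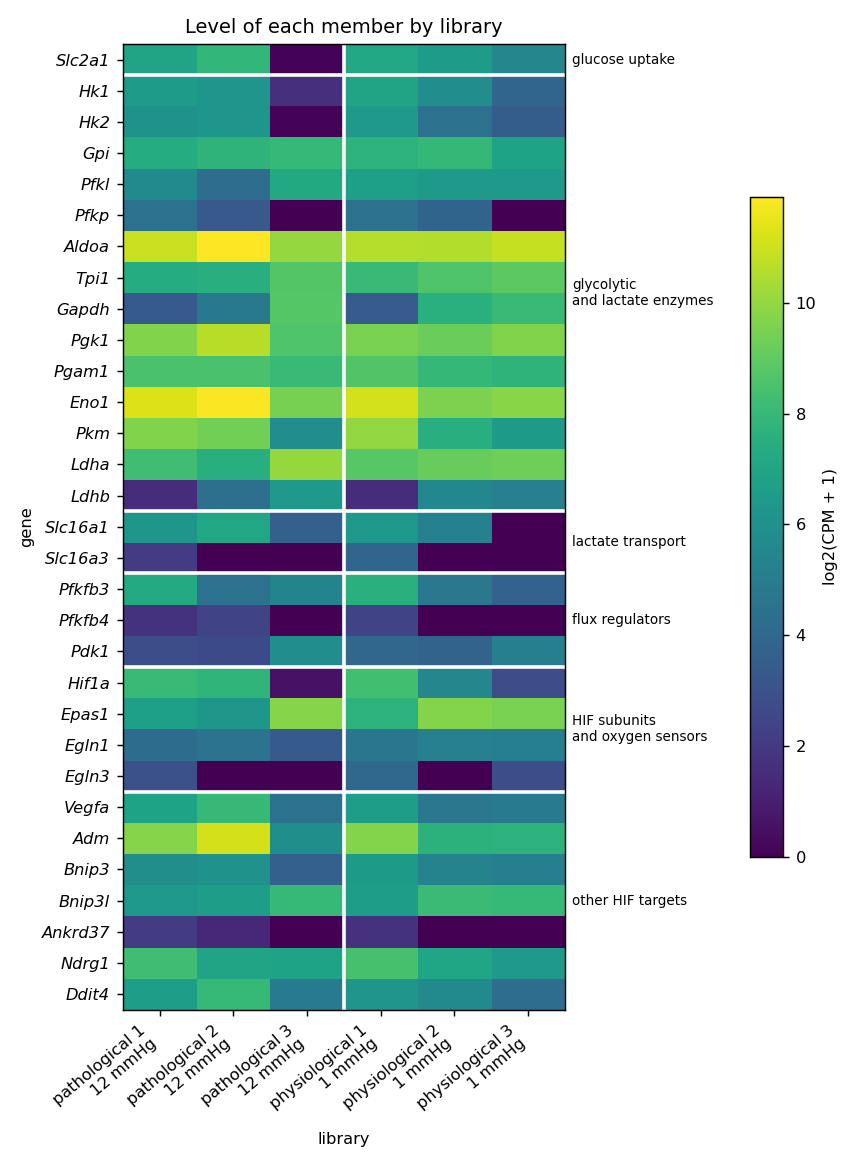
Level of each of the 31 members as log2(CPM + 1) in the 3 libraries at 12 mmHg (left) and the 3 at 1 mmHg (right), with genes grouped by role. Colours compare libraries within a gene, not genes with each other, since levels are not divided by length. Slc2a1, Hk2 and Hif1a are darkest in pathological library 3, and Epas1 is brightest in the 3 hepatocyte-rich libraries.

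Lactate leaves the cell through monocarboxylate transporters. Slc16a1, which encodes MCT1, had 79.3, 135 and 11.6 CPM at 12 mmHg, against 79.6, 36.9 and 0 CPM at 1 mmHg, with a log2 fold change of 0.95 (-3.06 to 4.97). The HIF-induced MCT4 gene, Slc16a3, had a count only in the first library of each group, with 3.40 CPM at 12 mmHg and 14.0 CPM at 1 mmHg, and did not reach the minimum for testing. Pfkfb3 makes the activator of phosphofructokinase that sets the glycolytic rate of endothelial cells. It had 155, 21.4 and 40.3 CPM at 12 mmHg, against 188, 26.7 and 12.5 CPM at 1 mmHg. In either group the first library was well above the other 2, and the log2 fold change was -0.07 (-2.79 to 2.65). Pfkfb4, a related enzyme, had at most 4.36 CPM at 12 mmHg and 4.44 CPM at 1 mmHg, and was at 0 in the 3 hepatocyte-rich libraries. Pdk1, a pyruvate dehydrogenase kinase, averaged 22.3 ± 28.8 CPM at 12 mmHg and 20.5 ± 12.1 CPM at 1 mmHg (SD, n = 3 each).

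The HIF subunits and oxygen sensors had a median log2 fold change of -0.85, with 1 positive and 3 negative, none of them called. Hif1a had 260, 223 and 0.474 CPM at 12 mmHg, against 319, 44.1 and 5.56 CPM at 1 mmHg. The hepatocyte-rich libraries were the 3 lowest, and the value in pathological library 3 stood for 5 counts. Its log2 fold change was 0.39 (-3.66 to 4.45). Epas1, which encodes HIF-2 alpha and is abundant in endothelium, had 104, 78.0 and 852 CPM at 12 mmHg, against 209, 842 and 727 CPM at 1 mmHg. In contrast to Hif1a, its 3 highest values lay in the hepatocyte-rich libraries of both groups, and its log2 fold change was -0.78 (-3.16 to 1.59, unadjusted p = 0.47).

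Egln1, the prolyl hydroxylase PHD2 and the main oxygen sensor of most cells, had 17.6, 22.5 and 9.38 CPM at 12 mmHg, against 24.4, 35.7 and 33.9 CPM at 1 mmHg. Each 12 mmHg library lay below each 1 mmHg library, and Egln1 averaged 16.5 ± 6.63 CPM at 12 mmHg and 31.3 ± 6.09 CPM at 1 mmHg (SD, n = 3 each). The log2 fold change of Egln1 was -0.92 (-3.21 to 1.36, unadjusted p = 0.379). RefSeq lists 6 copies of Egln1, and its count was not whole in 5 of 6 libraries, so its level is uncertain. Egln3, the HIF-induced prolyl hydroxylase PHD3, had 6.87, 0 and 0 CPM at 12 mmHg, against 14.7, 0 and 5.99 CPM at 1 mmHg. It was highest in the first library of each group, and its log2 fold change was -1.58 (-8.58 to 5.41, unadjusted p = 0.616). It moved to -9.90 without pathological library 1 and to -0.21 without physiological library 1.

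In the fit to all 6 libraries, the 3 most positive fold changes of the list belonged to other HIF targets (Ddit4, Vegfa and Adm), and none passed the test. Ddit4, an inhibitor of mTORC1, had 101, 254 and 29.3 CPM at 12 mmHg, against 74.9, 50.7 and 18.4 CPM at 1 mmHg. It averaged 128 ± 115 CPM at 12 mmHg and 48.0 ± 28.3 CPM at 1 mmHg (SD, n = 3 each), and its log2 fold change was 1.42 (-0.75 to 3.58, unadjusted p = 0.17). Pathological library 2 was the highest, pathological library 1 the next, and pathological library 3 lay between the 1 mmHg values.

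Vegfa, the endothelial growth factor, had 119, 254 and 20.9 CPM at 12 mmHg, against 97.2, 25.7 and 29.2 CPM at 1 mmHg, with a log2 fold change of 1.37 (-0.94 to 3.68, unadjusted p = 0.209). Adm, which encodes the vasodilator adrenomedullin, had 869, 2237 and 60.8 CPM at 12 mmHg, against 820, 202 and 206 CPM at 1 mmHg, with a log2 fold change of 1.37 (-1.32 to 4.06, unadjusted p = 0.275). For both genes pathological library 2 was the highest and pathological library 3 the lowest of all 6, so the groups overlapped. Over all tested members, pathological library 2 was highest for 8 of 30, against 21.1% of all genes, and pathological library 3 was lowest or tied for lowest for 16 of 30, against 43.8%.

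Single libraries moved these values. Without pathological library 2, which held the highest level of all 3 genes, Ddit4, Vegfa and Adm had log2 fold changes of 0.44, 0.47 and 0.19, and Epas1 one of -0.31. With a term for hepatocyte content they were 0.80, 0.63 and 0.12, and -0.82 for Epas1. Without pathological library 3, Ddit4, Vegfa and Adm had log2 fold changes of 1.89, 1.88 and 1.92, and Epas1 one of -2.68. Unadjusted p-values were then 0.0404, 0.044, 0.0445 and 0.00774, and the adjusted p was 0.858 for each of these 4. In that fit 5 members, Gapdh (-3.05) being the fifth, had an unadjusted p under 0.05, against 5.81% of all genes, and 0 genes passed the adjustment. The groups then did not overlap for 13 of 31 members, against 24.1% of all genes. Among hepatocyte-rich libraries alone, Ddit4, Vegfa and Adm had log2 fold changes of -0.23, -0.37 and -1.73 and Epas1 one of 0.13, so the signs of all 4 turned.

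**Figure D3:**
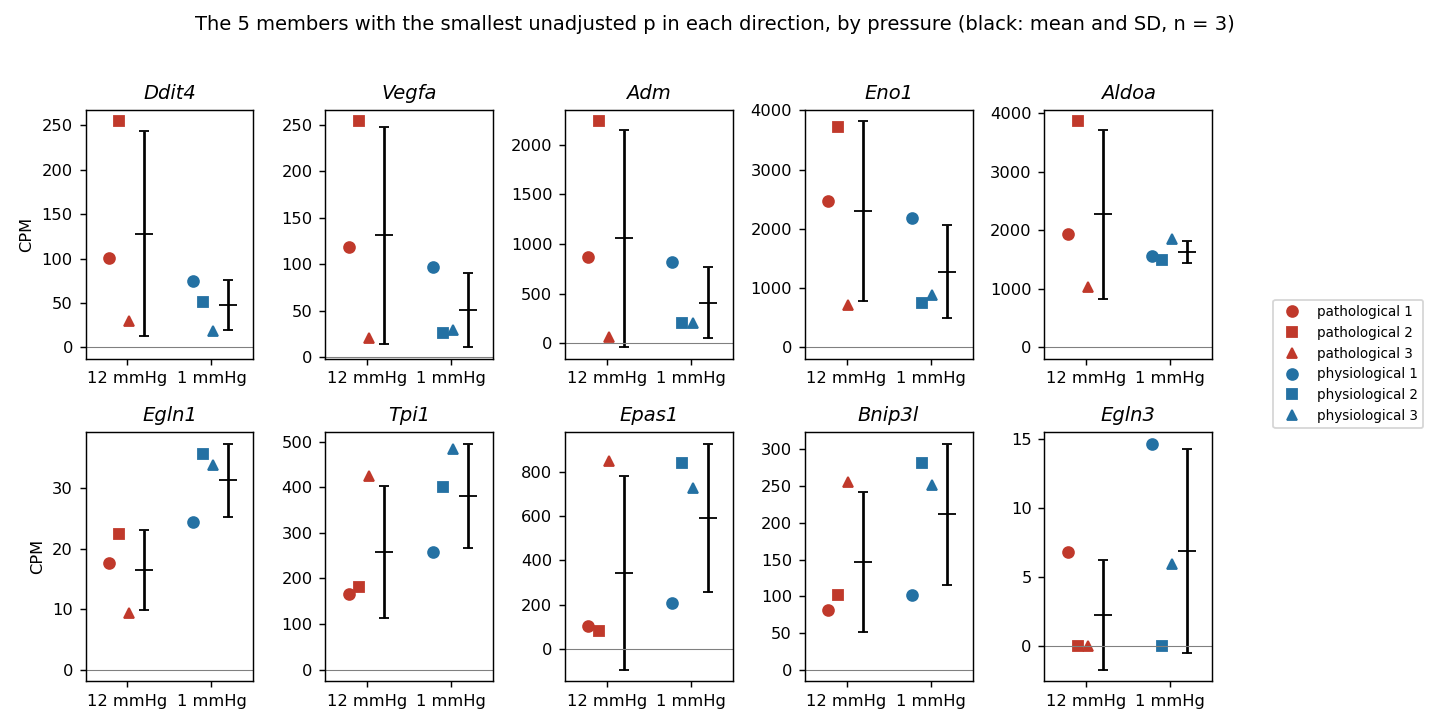
CPM on the y axis of the 5 members with the smallest unadjusted p and a positive fold change (top row) or a negative one (bottom row), at 12 mmHg (red, left) and 1 mmHg (blue, right), with marker shapes for replicates and black bars for mean and SD (n = 3). Ddit4, Vegfa and Adm are highest in pathological library 2, and only Egln1 has groups that do not overlap.

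Bnip3 and Bnip3l encode receptors for the removal of mitochondria. Bnip3 had 58.8, 65.3 and 11.8 CPM at 12 mmHg, against 87.6, 39.3 and 33.8 CPM at 1 mmHg, with a log2 fold change of -0.24 (-2.35 to 1.87). Bnip3l had 81.2, 102 and 256 CPM at 12 mmHg, against 102, 282 and 251 CPM at 1 mmHg, with a log2 fold change of -0.53 (-2.17 to 1.11, unadjusted p = 0.474). The hepatocyte-rich libraries were the 3 lowest for Bnip3 and the 3 highest for Bnip3l, with overlapping groups in both. RefSeq lists 8 copies of Bnip3, whose count was not whole in 4 of 6 libraries, so its level and its ratio to Bnip3l are uncertain. Ankrd37, a HIF-induced gene, had at most 3.18 CPM at 12 mmHg and 2.34 CPM at 1 mmHg and was at 0 in the 3 hepatocyte-rich libraries. Ndrg1, a stress-induced gene, averaged 183 ± 108 CPM at 12 mmHg and 188 ± 142 CPM at 1 mmHg (SD, n = 3 each).

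For 14 of 30 tested members the 3 hepatocyte-rich libraries were the 3 lowest, against 30.2% of all genes. These were 5 enzymes (Hk1, Hk2, Pgam1, Eno1 and Pkm) and 9 other members (Slc2a1, Slc16a1, Pfkfb4, Hif1a, Vegfa, Adm, Bnip3, Ankrd37 and Ddit4). For 6 members those libraries were the 3 highest, against 18.3% of all genes, namely Tpi1, Gapdh, Ldha, Ldhb, Epas1 and Bnip3l. The other 10 had mixed orders. Pathological library 3 held 65025 CPM of hepatocyte markers and the fewest genes with a count, 10234, and the part of hepatocyte RNA in these orders was not tested. The hepatocyte-rich libraries also held the 3 highest sums of endothelial markers, stellate markers and mitochondrial transcripts, whose part was not tested either. Single endothelial and stellate markers did not all follow these sums.

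**Figure D4:**
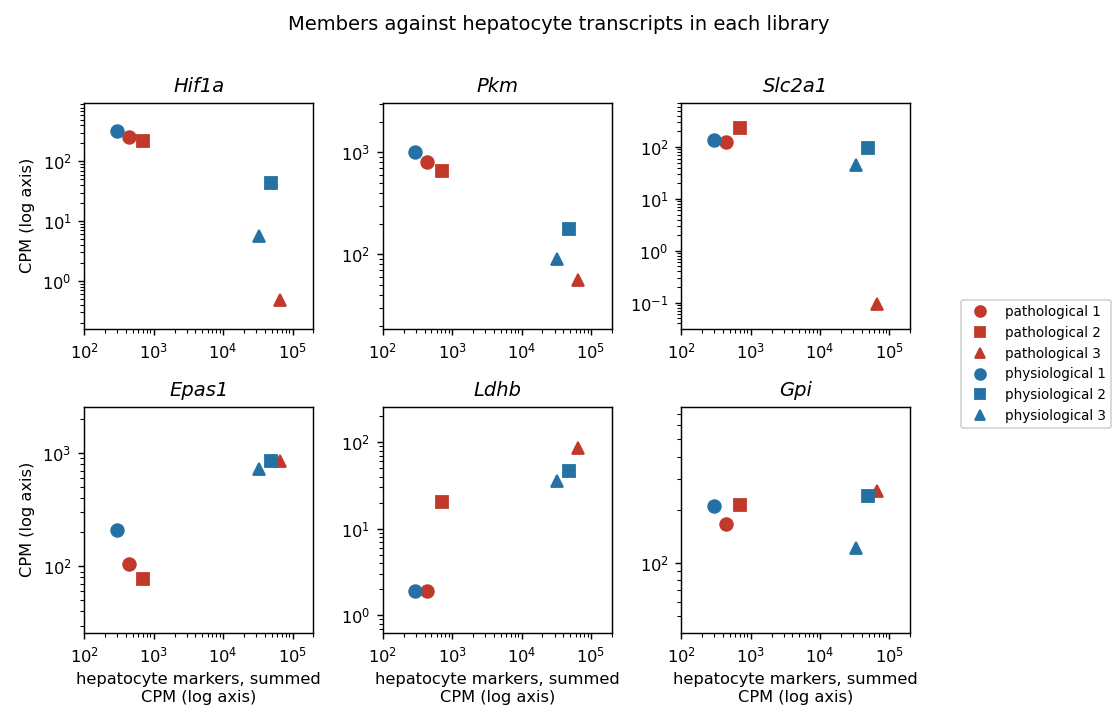
CPM of 6 members (y axis, log scale) against the summed CPM of 18 hepatocyte markers (x axis, log scale) in each library, with 12 mmHg in red and 1 mmHg in blue. Hif1a, Pkm and Slc2a1 are lower in the 3 libraries above 10000 CPM of markers, Epas1 and Ldhb are higher there, and Gpi lies within 2.11 times throughout.

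Ratios of related genes within a library, which need no scaling between libraries, were compared for 10 pairs with 0.5 added to each count. The groups overlapped in each of these pairs. An exact two-sided permutation test, which cannot go below p = 0.1 with 3 libraries against 3, gave no p under 0.4, with adjusted values of 1. The p of 0.4 was that of Slc16a3/Slc16a1, both of which were at 0 in physiological library 3, so that its ratio there rests on the added 0.5 alone. The log2 ratio Epas1/Hif1a was -1.32, -1.52 and 10.68 at 12 mmHg, against -0.61, 4.25 and 7.01 at 1 mmHg. Thus the ratio was negative in the 3 hepatocyte-poor libraries and positive in the 3 hepatocyte-rich ones at either pressure.

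For the pyruvate kinases, Pkm/Pklr was 11.21, 11.95 and -1.66 at 12 mmHg, against 15.91, 1.47 and -0.58 at 1 mmHg. Pklr is the form of liver and red cells, and it had 0.322, 0.142 and 177 CPM at 12 mmHg, against 0, 64.1 and 134 CPM at 1 mmHg, so the ratio of 15.91 rests on the added 0.5. Pkm/Pklr was lowest in the 3 hepatocyte-rich libraries, as was Slc2a1/Slc2a2, which sets GLUT1 over the liver carrier GLUT2. That ratio was 12.77, 13.29 and -6.35 at 12 mmHg, against 9.54, 2.75 and 0.21 at 1 mmHg. Slc2a2 was at 0 in pathological libraries 1 and 2, so the first values rest on the added 0.5, and the third rests on 1 count of Slc2a1. The difference between group means was 2.40, and 1.13 with 5 added to each count. Bnip3/Bnip3l also had its 3 lowest values in those libraries, with -0.47, -0.65 and -4.44 at 12 mmHg, against -0.22, -2.84 and -2.89 at 1 mmHg. Ldha/Ldhb differed, being highest in the first library of each group, with 7.32, 3.12 and 3.61 at 12 mmHg, against 7.89, 3.58 and 4.11 at 1 mmHg.

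**Figure D5:**
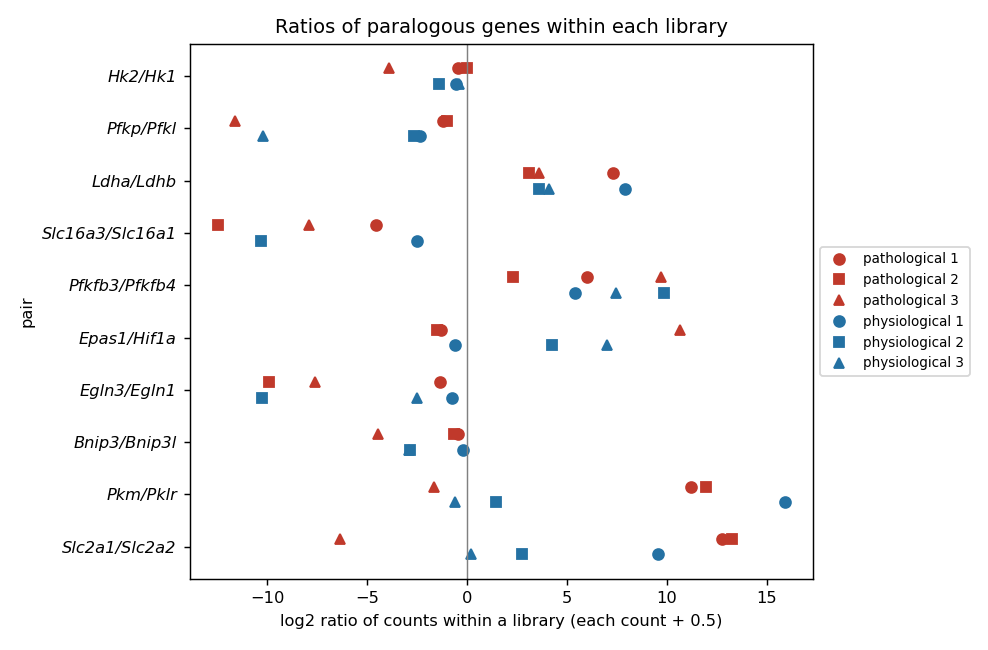
Log2 ratio of the counts of related genes within each library (x axis, 0.5 added to each count) for 10 pairs, with 12 mmHg in red above 1 mmHg in blue and marker shapes for replicates; the library in which both Slc16a3 and Slc16a1 are at 0 is left out. Epas1/Hif1a is lowest and Pkm/Pklr and Slc2a1/Slc2a2 are highest in the hepatocyte-poor libraries.

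Other genes of the same pathways did not pass the test either. Of 17 tested other glycolysis isozymes and carriers, 10 had a positive and 7 a negative fold change, with 0 called and a median log2 fold change of 0.15. The 3 with the smallest unadjusted p were the pyruvate dehydrogenase kinases Pdk3 (-3.79) and Pdk2 (1.66) and the mitochondrial pyruvate carrier Mpc1 (-0.62). Pdk3 had 5.44, 0 and 0 CPM at 12 mmHg, against 9.67, 5.73 and 60.3 CPM at 1 mmHg, and was the 1 of 17 whose groups did not overlap, against 3.05% of all genes lower. Of 12 liver isozymes and gluconeogenic genes, 5 were positive and 7 negative, with a median of -0.17 and 0 called. The 3 with the smallest unadjusted p were the mitochondrial PEP carboxykinase gene Pck2 (-1.14), Slc2a2 (-2.21) and Pfkfb1 (-1.71). Pck2, with 15.7, 2.13 and 13.5 CPM at 12 mmHg, against 30.4, 18.5 and 19.96 CPM at 1 mmHg, was the 1 of 12 whose groups did not overlap, against the same 3.05%.

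Of 37 other HIF pathway genes tested, 19 were positive and 18 negative, with a median of 0.03 and 0 called. Their groups did not overlap for 3 of 37, each lower at 12 mmHg (P4ha2, Loxl2 and Flt1), and for none higher, against 3.05% and 1.56% of all genes. Loxl2, a lysyl oxidase, had 7.29, 1.66 and 0 CPM at 12 mmHg, against 10.3, 17.3 and 46.5 CPM at 1 mmHg, with a log2 fold change of -3.04 (-7.65 to 1.57). Wsb1, a ubiquitin ligase adaptor, had one of 1.25, and Ak4, a mitochondrial adenylate kinase, one of -3.81.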

How the data were processed

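PolyA RNA of 6 libraries, 3 per pressure, was sequenced single-end. The authors deposited expected counts per gene, estimated read counts before normalization, per the file headers. Per the submitters' processing notes, RSEM, STAR and limma were used, without versions. The sources used here do not give genome build, annotation or strand use. Reads shared by several genes are divided in such estimates (4.33% to 10.4% of values were not whole), and antisense or overlapping genes are uncertain. Replicates are numbered in accession order and name libraries only.

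Counts were rounded and tested over all genes in R 4.3.3 by edgeR 4.0.16 (quasi-likelihood F-test, TMM scaling, filterByExpr), leaving 12742 of 32623 genes. P-values were two-sided with Benjamini-Hochberg adjustment at 0.05. Confidence intervals of fold changes are approximate, computed from the fold change, its F statistic and the t distribution. Member levels are CPM on TMM-scaled totals, and marker sums use plain totals. Low-count intervals are exact Poisson at 95%, and a limit for 0 is 3 counts. Ratios were tested by exact permutation (scipy 1.17.1). The test was tested on simulated data. DESeq2 1.42.0, limma 3.58.1, other scalings, filters, a replicate block, a hepatocyte term, hepatocyte-content subsets and leaving out libraries were alternatives. All library pairs differed by more than sampling noise.

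The members and lists were chosen with earlier results of these data known. All members were accounted for. Full values were given for members whose groups did not overlap, the 5 per direction with the smallest unadjusted p and a fixed set of 16 (Slc2a1, Hk1, Hk2, Aldoa, Gapdh, Pgk1, Pkm, Ldha, Pfkfb3, Hif1a, Epas1, Egln3, Vegfa, Adm, Bnip3, Ddit4), plus 3 genes per further list. Pklr, P4ha2 and Flt1, and members given in full beyond the rule, were chosen after their values were seen. Promoters and copy symbols come from RefSeq (GRCr8), which is not taken to be the build of the counts. Vegfa has a second listed start, and the first was used. An item of the liver list is not reported here.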

Additional observations from a re-analysis of the deposited data

How the results depend on the processing

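The spread between libraries (a common biological coefficient of variation of 1.39) limits every member, not only low ones such as Egln3, Pfkfb4 and Ankrd37. The cause of the differences below was not tested, except that subsets hold fewer libraries. Outside leaving out single libraries, 148 of 169 recomputed fold changes of 13 members kept their sign and 21 turned. None of these 13 turned under another scaling or filter, and no member was called there. DESeq2 called 1 gene and no member. With voom, log2 fold changes were -0.94 for Slc2a1, -1.05 for Hk2 and -0.12 for Hif1a. With voom sample weights, 11 members had an unadjusted p under 0.05, against 19.8% of all genes, 0 were called, and Egln3 was at 0.20. With a replicate block of neighbouring sample numbers, Slc2a1 was at -1.03, Hk2 at -0.88 and Hif1a at -0.35, with 0 genes called. Deviations of these neighbouring libraries from their group means correlated at 0.64, -0.21 and 0.39. The pairs with a positive value matched in hepatocyte content and the other did not, so the correlations cannot decide whether the libraries are paired. The labels name no pairing, and the block was an alternative only. With a term for hepatocyte content the same 3 genes were at -2.04, -2.20 and -1.85. The medians of enzymes and other members, 0.17 and 0.25 in the main fit, were -0.18 and -0.18 with voom. They were 0.52 and 0.72 with voom sample weights, -0.11 and -0.14 with the block, and -0.05 and -0.22 with the hepatocyte term. Among hepatocyte-poor libraries they were -0.19 and -0.39, and among hepatocyte-rich ones -0.12 and -0.53.

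Among hepatocyte-poor libraries (pathological 1 and 2, physiological 1), 1 member had an unadjusted p under 0.05, 26 did not overlap, against 68.5% of all genes, Hk2 was at -0.21 and Hif1a at -0.39. Among hepatocyte-rich libraries, where 1 library stands against 2 and calls compare libraries rather than pressures, 244 genes and 1 member (Slc2a1) were called, 3 members had an unadjusted p under 0.05, against 9.91% of all genes, and 21 did not overlap, against 65%. There, log2 fold changes were -9.38 for Slc2a1, -7.21 for Hk2, -5.68 for Hif1a, -0.23 for Ddit4, -0.37 for Vegfa, -1.73 for Adm, -0.19 for Eno1, -0.68 for Aldoa and 0.13 for Epas1.

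Leaving out 1 library at a time left 0 genes called. Members at an unadjusted p under 0.05 ran from 0 to 5 and members with groups that did not overlap from 1 to 13, the most without pathological library 3 (13 of 31, against 24.1% of all genes). The median of the enzymes ran from -0.05 to 0.52. The median of the other members ran from -0.18 to 1.42, the highest without physiological library 1, which leaves only hepatocyte-rich libraries at 1 mmHg. Pairs of ratios that did not overlap ran from 0 to 3. Log2 fold changes ran from 0.44 to 1.97 for Ddit4, 0.47 to 2.35 for Vegfa, 0.19 to 2.47 for Adm, 0.32 to 1.58 for Eno1, -2.68 to -0.31 for Epas1, -9.90 to -0.21 for Egln3, -1.21 to -0.63 for Egln1, -1.12 to -0.34 for Tpi1, -1.19 to -0.24 for Bnip3l, -0.14 to 0.84 for Aldoa, -0.55 to 0.98 for Slc2a1, -0.19 to 1.71 for Hk2 and -0.18 to 2.80 for Hif1a. Differences in log2 ratio ran from -2.13 to 3.95 for Pfkp/Pfkl, -4.97 to 1.13 for Epas1/Hif1a, -0.56 to 1.43 for Bnip3/Bnip3l, -1.52 to 6.72 for Pkm/Pklr, -0.96 to 8.86 for Slc2a1/Slc2a2, -1.83 to 0.84 for Ldha/Ldhb, -3.43 to 0.30 for Pfkfb3/Pfkfb4, -1.39 to 0.56 for Hk2/Hk1 and -4.69 to 0.083 for Egln3/Egln1. Only Slc16a3/Slc16a1 kept its sign, from -7.06 to -1.90, though Slc16a3 had a count only in the first library of each group.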
